A study of Homo sapiens with 4 samples.

Results

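LIN28B, the core enzymes of microRNA processing and the Argonaute proteins were examined at the mRNA level in SAPCD2-knockdown neuroblastoma cells. The set comprised 10 genes: LIN28B, DROSHA, DGCR8, DICER1, TARBP2, AGO1, AGO2, AGO3, AGO4 and TNRC6A. Each was matched by its GENCODE symbol to 1 Ensembl gene identifier among the 64252 genes of the count table, and all 10 were among the 18779 genes that passed the filter on low counts and were tested. LIN28B mRNA rose 2.76-fold upon SAPCD2 knockdown. DICER1 and AGO1 rose less, by 1.43-fold and 1.31-fold, and the other 7 genes did not pass the test.

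MicroRNA precursors are cut in the nucleus by the microprocessor, in which DROSHA is the ribonuclease and DGCR8 its RNA-binding partner. The hairpins that leave the nucleus are cut again by DICER1, assisted by TARBP2, and the product is loaded onto an Argonaute protein. The loaded Argonaute finds target mRNAs through the seed of the microRNA and recruits a GW182 protein such as TNRC6A to repress them. LIN28B binds precursors of the let-7 family and blocks their maturation, and let-7 in turn targets LIN28B mRNA. In neuroblastoma LIN28B is known as an oncogene that raises MYCN protein through loss of let-7.

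SK-N-BE(2), an established neuroblastoma cell line with MYCN amplification, carried either a scrambled shRNA (sh-Scb, the control group) or an shRNA against SAPCD2 (sh-SAPCD2), with 2 RNA-seq libraries in each group. According to the study's methods the shRNAs were delivered by lentivirus and cells were selected with puromycin. The methods do not state this for the sequenced cells in particular, and the figure legends call the cells transfected. The labels do not say which SAPCD2 hairpin was used, nor whether the libraries of a group came from separate cultures, so the p-values measure only the spread between these libraries, which may be technical. Mature microRNAs were not measured.

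The libraries held from 25347900 to 31850997 counts, and the detection floor of 3 counts stood at 0.0955 to 0.119 CPM (library-scaled counts, with the TMM factors of edgeR). SAPCD2 itself retained 42.7% of the mean control level in the first sh-SAPCD2 library and 63.3% in the second, and its log2 fold change was −0.91 (SE 0.193, adjusted p = 0.0206). Of 12 adrenergic neuroblastoma markers all were detected in every library, and their summed level, here scaled by library totals alone, was 3533 to 3626 CPM in the control group and 3609 to 4173 CPM in the sh-SAPCD2 group, with 1 marker higher and 5 lower in the test. Of 10 mesenchymal markers PRRX1 was at 0 in all libraries, and the sum was 1567 to 1582 CPM in the control group and 823 to 889 CPM in the sh-SAPCD2 group, with 1 marker higher and 2 lower of 9 tested. VIM made up most of this sum, with TMM-scaled levels of 1197 and 1179 CPM in the control group and 518 and 555 CPM in the sh-SAPCD2 group. Of 13 markers of blood, endothelial, epithelial and liver cells 5 to 8 were at 0 in a library, and the sum was 14.5 to 15.2 CPM in the control group and 16.3 to 17.0 CPM in the sh-SAPCD2 group, with 1 of 5 tested markers higher and 0 lower. The part of these markers in the results was not tested, and in bulk RNA fewer cells of a type and less RNA per cell cannot be told apart.

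The sequences that tie LIN28B to let-7 are given first, because both the regulator and its targets are read through the let-7 seed. In RefSeq (GRCh38.p14) 9 mature microRNAs of the family share the seed GAGGUAG, bases 2 to 8, which is set in capitals in 4 of them, 5′ to 3′.
hsa-let-7a-5p: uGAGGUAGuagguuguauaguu
hsa-let-7b-5p: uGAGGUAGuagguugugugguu
hsa-let-7i-5p: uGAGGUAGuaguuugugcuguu
hsa-miR-98-5p: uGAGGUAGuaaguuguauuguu

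The site complementary to this seed, CTACCTC, occurred 4 times in the 3′ UTR of LIN28B, which is 4549 bases long and lies in the last of its 4 exons. The 4 sites lie on the plus strand of chromosome 6 (hg38) at chr6:105078827-105078833, chr6:105081254-105081260, chr6:105081436-105081442 and chr6:105082875-105082881. Each is shown as the transcript reads, with 15 bases before it and 1 after it, and the site in capitals.
LIN28B site 1: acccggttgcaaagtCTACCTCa
LIN28B site 2: tactgatgatagtaaCTACCTCt
LIN28B site 3: gtttacagcaaaaggCTACCTCa
LIN28B site 4: aaatgatggtgttgaCTACCTCt

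Sites 1 and 3 are followed by A and sites 2 and 4 are not. The first site starts 44 bases into the 3′ UTR, and the last starts at base 4092. Only the transcript strand of each canonical 3′ UTR (GENCODE 44) was searched. At least 1 copy of CTACCTC was present in 9.81% of 19170 protein-coding 3′ UTRs, and in 23.0% of the 1530 whose length was within 20% of that of LIN28B. Among the 10 genes, 5 held a copy: LIN28B with 4, AGO2 with 2, and TARBP2, AGO1 and AGO3 with 1 each. Of 3′ UTRs within 20% of the length of the gene, 49.1% held a copy for AGO1, 50.6% for AGO2 and 55.6% for AGO3. For the short 3′ UTR of TARBP2 (283 bases) the share was 2.31%. The canonical 3′ UTR of DICER1 (4270 bases) held none, and its longest annotated 3′ UTR (6674 bases) held 3.

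An shRNA is itself cut by DICER1 and loaded onto Argonaute, so both arms of the SAPCD2 hairpin were also searched for in these genes. The study lists 2 SAPCD2 hairpins and names the first for its RNA-seq columns, and the arms of that hairpin, as designed, are shown with bases 2 to 8 in capitals.
sh-SAPCD2 #1 guide arm: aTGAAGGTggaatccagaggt
sh-SAPCD2 #1 passenger arm: aCCTCTGGattccaccttcat

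The 7-base site for the guide arm, ACCTTCA, was present in the 3′ UTRs of LIN28B (1 copy), DICER1 (2 copies), AGO2 (1 copy) and AGO3 (1 copy), against 11.3% of all protein-coding 3′ UTRs. The site for the passenger arm, CCAGAGG, was present once each in LIN28B, AGO1, AGO2 and AGO3, against 15.9% of all. Among 3′ UTRs within 20% of the length of each gene, the guide-arm site was present in 25.6% for LIN28B, 24.6% for DICER1, 56.8% for AGO2 and 55.6% for AGO3. The passenger-arm site was present in 33.7% of those for LIN28B, 57.9% for AGO1, 61.1% for AGO2 and 68.9% for AGO3. Long 3′ UTRs thus held the sites more often: the canonical 3′ UTRs of AGO1, AGO2 and AGO3 measure 10925, 11888 and 16755 bases, against a median of 1071 bases. A match of letters describes the sequence and does not show that the site was bound. The control cells carried a hairpin too, but the study's methods list no sequence for it, and its arms were not searched. In these libraries, loss of SAPCD2 and other effects of its hairpin cannot be told apart.

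At an adjusted p below 0.05 over all tested genes, 3 of the 10 genes were higher in SAPCD2-knockdown cells and 0 were lower, where 12.4% of all tested genes were higher and 12.5% lower (24.8% in either direction). With the further threshold of an absolute log2 fold change over 1, used by the study, 1 of the 10 genes, LIN28B, was called higher and 0 were called lower, where 4.69% of all tested genes were called higher and 5.15% lower (9.84% in either direction). The libraries of the groups did not overlap for 6 genes that were higher and 3 that were lower, against 33.5% and 33.4% of all tested genes (67% in either direction). AGO3 was the gene whose groups overlapped. The counts depended on the libraries: without either control library 1 gene, LIN28B, was higher and 0 lower, without the first sh-SAPCD2 library 4 were higher and 2 lower, and without the second 6 were higher and 1 lower. Correcting the libraries for GC content and length gave 5 higher and 1 lower, and omitting the filter on low counts gave 1 higher and 0 lower. All 10 genes kept the direction of their fold change under 12 alternative settings, which changed the tool, the scaling, the filter or the model, or left out 1 library. A fit that left 1 library in a group took its spread from the other group alone, so its passes depend on that spread.

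**Figure D1:**
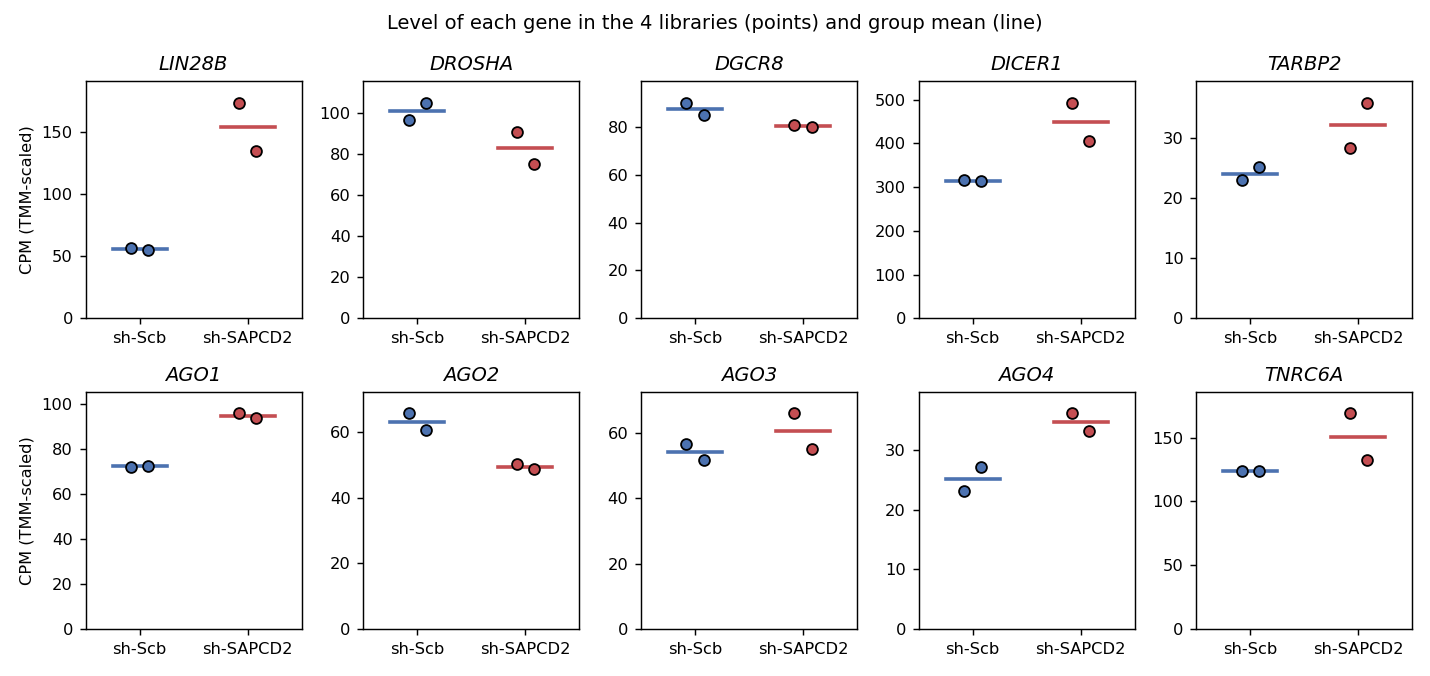
Level of the 10 genes in the 4 libraries, in TMM-scaled CPM on linear axes that start at 0, with a point for each library and a line at the mean of each group. The sh-SAPCD2 points of LIN28B, at 173.8 and 135.0 CPM, lie far above the control points at 56.5 and 55.3 CPM, whereas the points of AGO3 overlap between the groups.

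LIN28B (ENSG00000187772), the RNA-binding protein that blocks let-7 maturation, spans chr6:104936616-105083332 on the plus strand. Its level was 56.5 and 55.3 CPM in the control libraries and 173.8 and 135.0 CPM in the sh-SAPCD2 libraries (1560, 1521, 4400 and 4240 counts). Both knockdown libraries were far above both control libraries, and the knockdown libraries differed more from each other than the control libraries did. Control libraries averaged 55.9 ± 0.845 CPM (SD, n = 2), and sh-SAPCD2 libraries averaged 154 ± 27.4 CPM (SD, n = 2). The log2 fold change was 1.47 (SE 0.146, 95% interval 1.11 to 1.82, adjusted p = 0.00322, edgeR quasi-likelihood test, adjusted by Benjamini-Hochberg over all tested genes). It passed the test under 12 of 12 alternatives, with log2 fold changes of 1.27 to 1.64 and a highest adjusted p of 0.0201. Relative to the mean control level, LIN28B stood at 311% in the first sh-SAPCD2 library and at 242% in the second. The antisense gene LIN28B-AS1, which overlaps LIN28B on the opposite strand, had 8 and 11 counts in the control libraries and 5 and 0 in the sh-SAPCD2 libraries. Whether counting used the strand is not given in the sources used here.

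The paralog LIN28A, which blocks let-7 maturation in the cytoplasm, had 4 counts in each control library and 0 in both sh-SAPCD2 libraries and fell below the filter, so LIN28B accounted for nearly all LIN28 mRNA in all 4 libraries. The genes whose log2 CPM, centered on each gene, lay nearest to that of LIN28B across the 4 libraries were CTSS, GPR35, LINC02019, ENSG00000276734 and EML6, at Euclidean distances of 0.0656 to 0.136 among 15681 genes with a mean of at least 1 CPM. GPR35 and LINC02019 reached only 1.76 and 1.60 CPM in the sh-SAPCD2 group. EML6 rose from 30.9 and 30.7 CPM to 88.0 and 77.8 CPM, a log2 fold change of 1.43 (SE 0.121, adjusted p = 0.00263). With 4 libraries in 2 groups, a small distance says little beyond a like fold change.

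The nuclear enzymes moved less. DROSHA (ENSG00000113360, chr5:31400494-31532196, minus strand), the ribonuclease of the microprocessor, was at 96.5 and 105.1 CPM in the control libraries and at 91.0 and 75.4 CPM in the sh-SAPCD2 libraries. The groups did not overlap, but the gap between them was smaller than the distance between the sh-SAPCD2 libraries. Its log2 fold change was −0.28 (95% interval −0.59 to 0.04, adjusted p = 0.168), and it passed the test under 1 of 12 alternatives. That fit left out the first sh-SAPCD2 library (−0.42) and took its spread from the controls alone. DGCR8 (ENSG00000128191, chr22:20080221-20111877, plus strand), the partner of DROSHA, was at 90.3 and 85.1 CPM in the control libraries and at 80.8 and 79.9 CPM in the sh-SAPCD2 libraries. Its log2 fold change was −0.13 (95% interval −0.38 to 0.12, adjusted p = 0.406), and it passed under 0 of 12 alternatives. TRMT2A, which overlaps DGCR8 on the opposite strand, had a log2 fold change of 0.43 (adjusted p = 0.139).

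DICER1, the cytoplasmic ribonuclease that releases the microRNA duplex, had the highest level of the 10 genes per length of transcript and rose upon SAPCD2 knockdown. DICER1 (ENSG00000100697, chr14:95086228-95158010, minus strand, 27 exons) was at 316.2 and 313.1 CPM in the control libraries and at 493.6 and 406.2 CPM in the sh-SAPCD2 libraries. Both knockdown libraries were above both controls, and the first was the higher of them. Its log2 fold change was 0.52 (SE 0.120, 95% interval 0.22 to 0.81, adjusted p = 0.0276). It passed under 9 of 12 alternatives; the adjusted p was 0.231 without the first control library, 0.249 without the second and 0.0787 with no filter on low counts, at log2 fold changes of 0.51 to 0.52. DICER1-AS1, on the opposite strand, did not pass the test, with a log2 fold change of −0.04 (adjusted p = 0.885). TARBP2 (ENSG00000139546, chr12:53500921-53506431, plus strand), the double-stranded RNA-binding partner of DICER1, was at 23.0 and 25.2 CPM in the control libraries and at 28.3 and 35.9 CPM in the sh-SAPCD2 libraries. In contrast to DICER1, its second knockdown library was the higher of them, and the groups did not overlap. TARBP2 had a log2 fold change of 0.42 (95% interval 0.02 to 0.81, adjusted p = 0.112), and it passed under 1 of 12 alternatives. That fit left out the first sh-SAPCD2 library (0.57) and took its spread from the controls alone. With the correction for GC content and length, the log2 fold change of TARBP2 was smaller, at 0.26 (adjusted p = 0.0641, edgeR quasi-likelihood test). The lncRNA ENSG00000270175, which overlaps TARBP2 on the opposite strand, had 37 and 34 counts in the control libraries and 10 and 8 in the sh-SAPCD2 libraries (log2 fold change −1.99, adjusted p = 0.0224), a small amount beside the 635 to 1128 counts of TARBP2.

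Levels of different genes were set side by side only per length, as CPM per kb of the canonical transcript. The ratio of DICER1 to DROSHA on this scale was 1.71 and 1.55 in the control libraries and 2.83 and 2.81 in the sh-SAPCD2 libraries. Its means were 1.63 ± 0.110 and 2.82 ± 0.0150 (SD, n = 2), and the groups did not overlap (exact permutation test, two-sided, p = 0.333, the smallest that 2 against 2 allows). The ratio of DGCR8 to DROSHA was 1.12 and 0.973 in the control libraries and 1.07 and 1.27 in the sh-SAPCD2 libraries, and the groups overlapped.

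**Figure D2:**
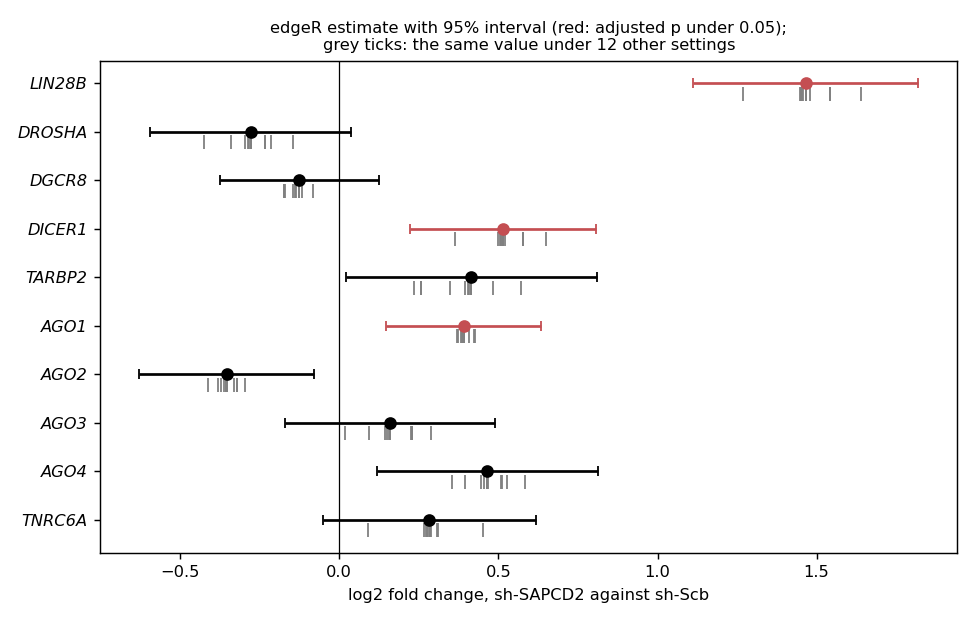
Log2 fold change of each gene in sh-SAPCD2 against sh-Scb cells with its 95% interval from edgeR, in red where the adjusted p was below 0.05, and grey ticks for the value under each of 12 alternative settings. LIN28B stands apart at 1.47, the other genes that passed the test, DICER1 and AGO1, lie at 0.52 and 0.39, and the intervals of DROSHA, DGCR8, AGO3 and TNRC6A include 0.

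The 4 Argonaute genes did not move together. AGO1 was higher, AGO4 was higher and AGO2 lower without passing the test, and AGO3 overlapped between the groups. AGO4 (chr1:35808016-35857890), AGO1 (chr1:35869808-35930532) and AGO3 (chr1:35930718-36072500) lie next to each other on the plus strand of chromosome 1, while AGO2, the Argonaute with slicer activity that cuts fully paired targets, lies on chromosome 8. How reads that match more than 1 of these paralogs were counted is not given in the sources used here.

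AGO1 (ENSG00000092847) was at 72.1 and 72.5 CPM in the control libraries and at 95.8 and 93.8 CPM in the sh-SAPCD2 libraries. Libraries of a group lay close together, and the groups were well apart. AGO1 had a log2 fold change of 0.39 (SE 0.100, 95% interval 0.15 to 0.63, adjusted p = 0.0365). It passed under 8 of 12 alternatives. Among those it did not pass, the adjusted p was 0.453 without the first control library, 0.441 without the second and 0.0769 with no filter on low counts, at log2 fold changes of 0.39. AGO2 (ENSG00000123908) was at 65.7 and 60.6 CPM in the control libraries and at 50.2 and 48.7 CPM in the sh-SAPCD2 libraries. It was the one Argonaute gene with a level below the controls in both knockdown libraries. Its log2 fold change was −0.35 (95% interval −0.63 to −0.08, adjusted p = 0.0672). It passed under 4 of 12 alternatives, among them without the first sh-SAPCD2 library (−0.38) and without the second (−0.33). Both of these fits took their spread from the controls alone.

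AGO4 (ENSG00000134698) was at 23.1 and 27.1 CPM in the control libraries and at 36.2 and 33.2 CPM in the sh-SAPCD2 libraries. Both knockdown libraries were above both controls. The log2 fold change was 0.46 (95% interval 0.12 to 0.81, adjusted p = 0.0608). It passed under 4 of 12 alternatives, among them DESeq2 (adjusted p = 0.0475) and without the second sh-SAPCD2 library (0.53). The latter fit took its spread from the controls alone. AGO3 (ENSG00000126070) was at 56.7 and 51.7 CPM in the control libraries and at 66.1 and 55.1 CPM in the sh-SAPCD2 libraries, so that the second knockdown library fell between the controls. Its log2 fold change was 0.16 (95% interval −0.17 to 0.49, adjusted p = 0.424), and it passed only without that second library (0.29), in a fit that took its spread from the controls alone.

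Per kb of transcript, the 4 Argonaute genes summed to 15.8 CPM per kb in both control libraries and to 18.8 and 17.5 CPM per kb in the sh-SAPCD2 libraries. AGO2 made up 28.5% and 26.3% of this sum in the control libraries and 18.3% and 19.0% in the sh-SAPCD2 libraries. AGO1 made up 33.2% and 33.5% in the control libraries and 37.2% and 39.0% in the sh-SAPCD2 libraries. The share of AGO2 was thus lower, and that of AGO1 higher, in both knockdown libraries. AGO4 went from 20.1% and 23.6% to 26.5% and 26.0%, and AGO3, at 16.6% to 18.2% in the control group and 15.98% to 17.9% in the sh-SAPCD2 group, overlapped. The ratio of AGO1 to AGO2 per kb was 1.17 and 1.27 in the control libraries and 2.03 and 2.05 in the sh-SAPCD2 libraries. For the AGO1, AGO2 and AGO4 shares, the sum and this ratio, an exact permutation test gave p = 0.333, the smallest that 2 against 2 allows. The long 3′ UTRs of these genes weigh on the per-kb scale, since each gene was divided by the length of 1 transcript, whichever isoforms the cells used.

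**Figure D3:**
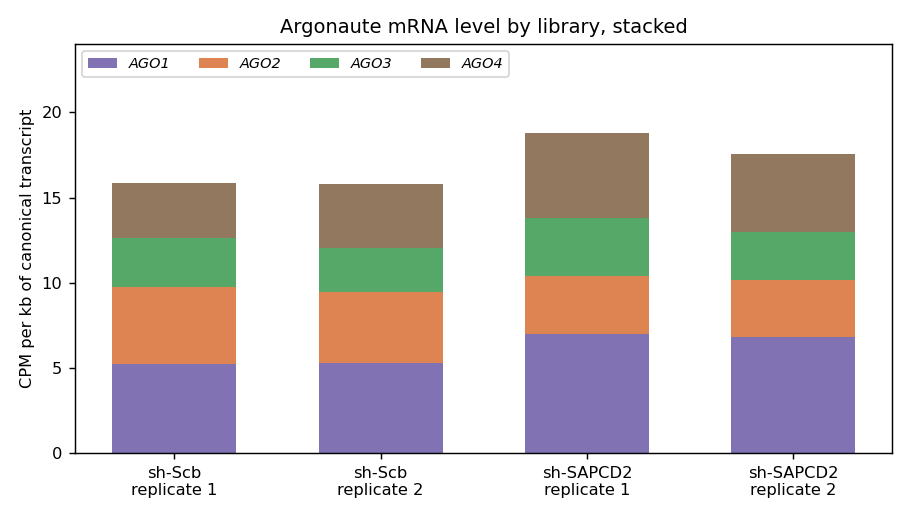
Stacked levels of AGO1, AGO2, AGO3 and AGO4 in each of the 4 libraries, in CPM per kb of canonical transcript, with 1 bar per library starting at 0. The bars reach 15.8 in both control libraries and 18.8 and 17.5 in the sh-SAPCD2 libraries, while the AGO2 segment shrinks from 28.5% and 26.3% to 18.3% and 19.0% of the bar.

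TNRC6A (ENSG00000090905, chr16:24610209-24827632, plus strand), the GW182 protein that links Argonaute to the deadenylation machinery, was at 123.4 and 124.1 CPM in the control libraries and at 169.1 and 132.3 CPM in the sh-SAPCD2 libraries. Both knockdown libraries were above the controls, the second only by a little. The log2 fold change was 0.28 (95% interval −0.05 to 0.62, adjusted p = 0.182). It passed under 3 of 12 alternatives, among them without the second sh-SAPCD2 library (0.45), in a fit that took its spread from the controls alone. Its paralogs TNRC6B and TNRC6C, singled out after their values were seen, did pass the test. TNRC6B went from 70.8 and 72.3 CPM to 121.6 and 95.4 CPM, a log2 fold change of 0.60 (SE 0.141, adjusted p = 0.0284). TNRC6C went from 51.1 and 48.6 CPM to 76.7 and 71.0 CPM, a log2 fold change of 0.57 (SE 0.112, adjusted p = 0.0172). For both, each knockdown library was above each control. Whether the change of TNRC6A differed from that of its paralogs was not tested.

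LIN28B was the gene that changed its place most in the order of the 10 genes by level. In the control group, in CPM per kb, DICER1 stood first at 30.2 to 30.5, followed by DGCR8 (18.9 to 20.04) and DROSHA (17.8 to 19.4), whose ranges overlapped. TARBP2, TNRC6A and LIN28B came next, LIN28B at 10.2 to 10.4, and then AGO1, AGO2, AGO4 and AGO3, each with a range apart from its neighbors. In the sh-SAPCD2 group DICER1 was again first at 39.1 to 47.5, and LIN28B was second at 24.8 to 31.9, above TARBP2 at 18.8 to 23.8. DGCR8, TNRC6A and DROSHA followed with overlapping ranges, then AGO1, AGO4, and AGO2 and AGO3, whose ranges overlapped. LIN28B thus moved from the sixth to the second place, while the Argonaute genes were the 4 lowest in both groups.

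The other genes of the pathway were counted in the same way. Of 56 further genes for nuclear processing, export, dicing, loading, silencing and turnover, 54 were tested, and 6 were higher and 10 lower at an adjusted p below 0.05, with a median log2 fold change of −0.08 against 0.02 over all tested genes. Both shares, 11.1% and 18.5%, are to be read against 12.4% and 12.5% of all tested genes. These counts rested on the libraries: without either control library 1 gene was higher and 1 lower, without the first sh-SAPCD2 library 10 and 23, and without the second 14 and 16. No filter on low counts gave 3 and 4, and the correction for GC content and length gave 13 and 14.

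Among 13 genes of nuclear processing 0 were higher and 5 were lower (0% and 38.5%, against 12.4% and 12.5% of all tested genes). Among the lower ones, named after their values were seen except ILF2, were NCBP1 of the cap-binding complex (−0.64), the microprocessor helicase DDX17 (−0.59), ILF2, an RNA-binding protein (−0.49), and the hairpin-binding HNRNPA1 (−0.37). None of the 13 had a log2 fold change above 0.17. For export, RAN, the GTPase that loads the exporter, fell from 573 and 575 CPM to 359 and 411 CPM, a log2 fold change of −0.58 (SE 0.105, adjusted p = 0.0133). XPO5, the exporter of microRNA precursors, chosen after its values were seen, was at 232 and 222 CPM in the control libraries and at 223 and 210.3 CPM in the sh-SAPCD2 libraries, with a log2 fold change of −0.07 (95% interval −0.30 to 0.17, adjusted p = 0.633).

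Among 12 genes of dicing and loading, AHSA1, a cochaperone of HSP90, rose from 91.8 and 94.4 CPM to 137 and 149 CPM (log2 fold change 0.62, SE 0.102, adjusted p = 0.0102). TSN, a subunit of the nuclease that removes the passenger strand, was the 1 gene that fell (−0.45, adjusted p = 0.0245). PRKRA, the other double-stranded RNA-binding partner of DICER1, had a log2 fold change of −0.12 (95% interval −0.39 to 0.15, adjusted p = 0.460). TSN and PRKRA were chosen after their values were seen.

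Among 19 tested genes of silencing 3 were higher and 3 lower (15.8% each, against 12.4% and 12.5% of all tested genes). The higher ones were TNRC6B, TNRC6C and SND1 (0.45, adjusted p = 0.0329). The lower ones were PAN2, the catalytic subunit of the PAN2-PAN3 deadenylase, and CNOT1 and CNOT6, scaffold and nuclease of the CCR4-NOT deadenylase. PAN2 fell from 93.3 and 91.0 CPM to 47.8 and 45.0 CPM, a log2 fold change of −0.99 (SE 0.107, adjusted p = 0.00377). CNOT1 and CNOT6 had log2 fold changes of −0.51 and −0.67 and, like SND1, were named after their values were seen.

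Among 8 tested genes of tailing and turnover 2 were higher and 0 lower (25% and 0%, against 12.4% and 12.5% of all tested genes). TRIM71, a let-7 target and a repressor of mRNAs in stem cells, rose from 10.8 and 9.89 CPM to 38.6 and 39.9 CPM, a log2 fold change of 1.93 (SE 0.136, adjusted p = 0.00201). ZSWIM8, the ubiquitin ligase adaptor of target-directed microRNA decay, had a log2 fold change of 0.64 (adjusted p = 0.0242). TUT4, which uridylates let-7 precursors bound by LIN28A, had a log2 fold change of −0.02 (adjusted p = 0.922), and DIS3L2, which degrades the tailed precursors, of 0.11 (adjusted p = 0.516). ZSWIM8, TUT4 and DIS3L2 were chosen after their values were seen.

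**Figure D4:**
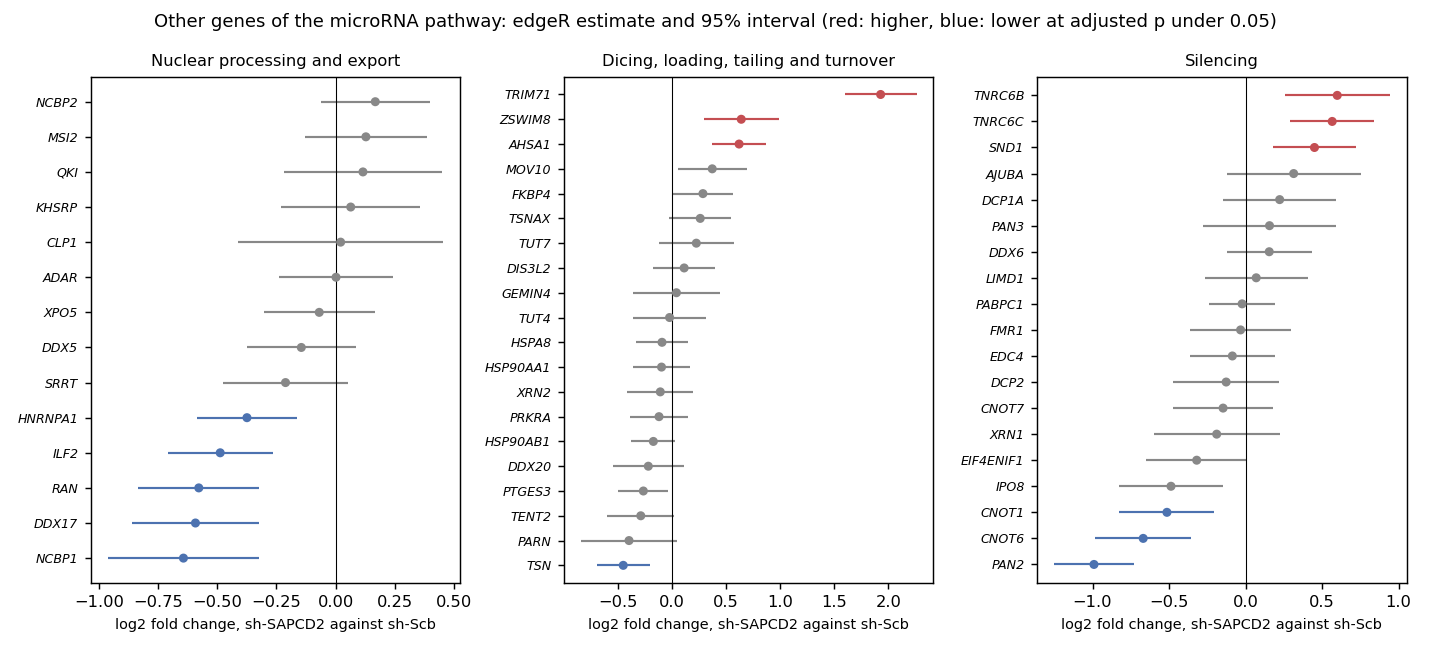
Log2 fold change with 95% interval for all but 1 of 54 other genes of the microRNA pathway, in panels by step, with genes in red higher and genes in blue lower at an adjusted p below 0.05. The 4 significant genes shown for nuclear processing and RAN all lie left of 0, while TRIM71 at 1.93 and PAN2 at −0.99 are the extremes.

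Since LIN28B blocks let-7 maturation, textbook let-7 targets were described as a further group. Of 30 listed targets 23 were tested, and 13 were higher and 6 lower, with a median log2 fold change of 0.59 against 0.02 over all tested genes. These shares were 56.5% and 26.1%, where 12.4% and 12.5% of all tested genes were higher and lower. DICER1, one of the 10 genes above, and TRIM71 are also in this list. Without either control library 6 were higher and 3 lower, and with no filter on low counts 9 were higher and 3 lower. The list was compiled from general knowledge with earlier results of these data known, and no test of the group was made.

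IGF1R, the receptor of insulin-like growth factors, rose from 259.4 and 254.6 CPM to 701.7 and 662.8 CPM, a log2 fold change of 1.41 (SE 0.0938, adjusted p = 0.00201). MYCN, the amplified driver oncogene of this line, rose from 3235 and 3178 CPM to 5904 and 7091 CPM, a log2 fold change of 1.02 (SE 0.111, adjusted p = 0.00378). For both genes the groups were far apart. ARID3A, a transcription factor, rose from 11.4 and 10.7 CPM to 33.1 and 42.4 CPM (log2 fold change 1.77, SE 0.171, adjusted p = 0.00319). HMGA1, a chromatin protein, fell from 386.4 and 379.4 CPM to 153.0 and 184.5 CPM (log2 fold change −1.18, SE 0.120, adjusted p = 0.00330). Targets therefore moved in both directions. Its paralog HMGA2, a well-known let-7 target chosen after its values were seen, had 0 counts in every library.

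Of the 23 targets, 16 held at least 1 copy of CTACCTC in the canonical 3′ UTR, and 10 of these were higher and 5 lower, with a median log2 fold change of 0.62. The 7 without a copy included 3 that were higher and 1 that was lower, with a median of 0.52. DICER1 was among these 3 higher genes, although its longest annotated 3′ UTR held 3 copies, so the split depends on the isoform chosen. TRIM71 held 6 copies and HMGA1 1, while MYCN held 0.

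The substrates of the microprocessor are partly visible in RNA-seq as host transcripts of microRNAs. Of 82 host genes, chosen as symbols that start with MIR and end with HG together with DLEU2, 32 were tested, and 7 were higher and 3 lower (21.9% and 9.38%, against 12.4% and 12.5% of all tested genes), with a median log2 fold change of 0.20 against 0.02 over all tested genes. Without the first control library 2 were higher and 1 lower, without the second 4 and 1, and with no filter on low counts 2 and 1. MIRLET7BHG, host of let-7a-3 and let-7b, rose from 8.0 and 7.92 CPM to 12.7 and 18.2 CPM, a log2 fold change of 0.96 (SE 0.214, adjusted p = 0.0244). MIRLET7IHG, host of let-7i, rose from 8.54 and 8.47 CPM to 17.2 and 12.8 CPM, a log2 fold change of 0.82 (SE 0.196, adjusted p = 0.0300). MIRLET7A1HG had a log2 fold change of 0.02 (95% interval −0.52 to 0.55, adjusted p = 0.963), and MIR17HG, host of the miR-17-92 cluster, of −0.21 (adjusted p = 0.366). Hosts of let-7 thus included 2 that rose, and the amount of mature let-7 cannot be read from them.

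Of the remaining hosts, MIR22HG went from 0.326 and 0.218 CPM to 2.53 and 1.72 CPM, a log2 fold change of 2.94 (SE 0.437, adjusted p = 0.00762) at a very low level. MIR9-1HG, host of the neural miR-9-1, and MIR23AHG had log2 fold changes of 0.80 and 0.84 (adjusted p = 0.0152 and 0.0174). MIR99AHG, host of miR-99a, let-7c and miR-125b-2, fell from 11.8 and 12.4 CPM to 6.16 and 5.76 CPM, a log2 fold change of −1.03 (SE 0.167, adjusted p = 0.00993). The let-7 hosts named here, which are not all of them, thus moved in both directions too. DLEU2 (−0.92) and MIR497HG (−2.15), the other hosts that fell, and MIRLET7IHG, MIRLET7A1HG and MIR17HG were named after their values were seen.

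**Figure D5:**
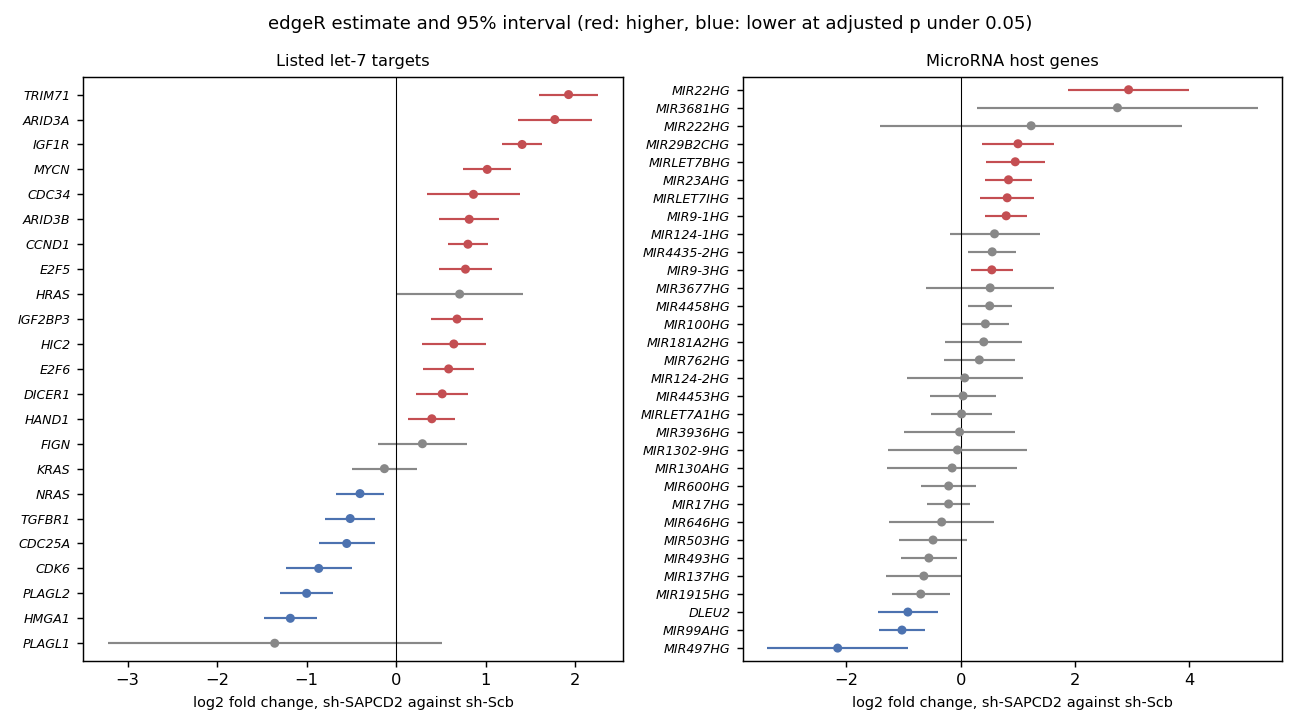
Log2 fold change with 95% interval for 23 tested let-7 targets and 32 tested microRNA host genes, in red higher and in blue lower at an adjusted p below 0.05. The targets range from PLAGL1 at −1.36, which did not pass the test and was named after its value was seen, to TRIM71 at 1.93, the significant target furthest left is HMGA1 at −1.18, and both panels hold genes on each side of 0.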

How the data were processed

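Per the labels and the study's methods, total RNA of SK-N-BE(2) cells was sequenced, reads were aligned to hg38 with HISAT2 2.2.0, abundances were estimated with StringTie, and the authors deposited whole-number counts per Ensembl gene without scaling for library size. How coverage became counts, the strand setting and the treatment of multiply matching reads are not given in the sources used here. Groups came from the labels. Counts were scaled by TMM and tested in R 4.3.3 with the two-sided quasi-likelihood test of edgeR 4.0.16 (no covariates), after filterByExpr (minimum count 10, minimum total 15), with Benjamini-Hochberg adjustment over 18779 genes. The script was tested on simulated data. The floor of 3 counts covers counting error only. Positions, lengths and 3′ UTRs came from GENCODE 44, in which 93.0% of tested genes were matched. Alternatives were DESeq2 1.42.0, its size factors, library totals, no filter, a filter at a mean of 1 CPM, a loess correction (span 0.3) for GC content and length, the replicate block, both of these, and each library left out.

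The 10 genes, the lists and the tests were chosen with earlier results of these data known. Named genes are the 10, SAPCD2, the 5 members of each list with the smallest p and the 5 genes nearest to LIN28B. Other names were chosen after the values were seen, which also holds for the overlapping genes and LIN28A. A few genes are counted but not reported here. The 2 libraries of a group were not duplicates: their counts differed by a chi-square per degree of freedom of 4.39 for sh-Scb and 38.0 for sh-SAPCD2.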

Additional observations from a re-analysis of the deposited data

How the results depend on the processing

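With 2 libraries per group, calls depended on the spread estimated from few libraries, and without 1 library the remaining one was assumed to vary like the other group. LIN28B passed the test under all 12 alternatives and no gene reversed. Causes of the changes below were not tested, except that no filter raises the number of genes tested. With no filter on low counts, 1 of the 10 genes was higher, 3 and 4 pathway genes were higher and lower, 3 let-7 targets were lower, 2 and 1 host genes were higher and lower, and DICER1 (0.52, adjusted p = 0.0787) and AGO1 (0.39, adjusted p = 0.0769) no longer passed. With the correction for GC content and length, 5 of the 10 genes were higher and 1 lower, 13 pathway genes were higher, and AGO2 (−0.32), AGO4 (0.51) and TNRC6A (0.31) passed. The same correction with the replicate block gave 5 and 1 of the 10 genes, 11 higher pathway genes and 11 higher host genes, with AGO2 at −0.32, AGO4 at 0.51 and TNRC6A at 0.31. DESeq2 also called AGO4 (0.46).

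Same-numbered libraries did not deviate together (correlation −0.0188), so no pairing by number was seen. With 2 libraries per group, this value cannot exclude that they were prepared in pairs. With the replicate block alone AGO1 no longer passed (0.39, adjusted p = 0.0745), which left 2 of the 10 genes higher, and the counts of the other lists stayed within 1.5 times.

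With each library left out in turn, 1 to 6 of the 10 genes were higher and 0 to 2 lower, 1 to 14 pathway genes higher and 1 to 23 lower, 6 to 14 let-7 targets higher and 3 to 7 lower, and 2 to 8 host genes higher and 1 to 4 lower. Log2 fold changes ranged from 0.36 to 0.65 for DICER1, 0.37 to 0.41 for AGO1, −0.41 to −0.30 for AGO2, 0.35 to 0.58 for AGO4, 0.018 to 0.29 for AGO3, 0.091 to 0.45 for TNRC6A, −0.42 to −0.15 for DROSHA and 0.23 to 0.57 for TARBP2.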

Other observations

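The number of let-7 sites was also counted over all tested genes with an annotated canonical 3′ UTR, a description chosen after the values were seen and given without a test. Genes with 0 copies of CTACCTC (12078 genes) had a median log2 fold change of 0.04, genes with 1 copy (1318 genes) of 0.04, genes with 2 copies (152 genes) of 0.05 and genes with 3 or more copies (32 genes, LIN28B among them) of 0.26. After the correction for GC content and length, the last median was 0.23. The 3′ UTRs of these 32 genes were long, with a median of 6477 bases against 1193 bases for genes without a copy. Of the 32 genes 8 were higher and 3 lower at an adjusted p below 0.05 (25% and 9.38%), against 14.8% and 13.8% of the genes without a copy.

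Beside LIN28B and TRIM71, the higher ones included FIGNL2 (log2 fold change 2.22), the nuclear receptor NR6A1 (1.08), IGDCC3 (1.08), the transcriptional repressor HIC2 (0.65) and NYNRIN (0.40). The lower ones were the cohesin subunit SMC1A (−1.29), AP5M1 (−0.64) and the kinase STK24 (−0.58). Genes with many let-7 sites thus moved in both directions, and the other 21 did not pass the test.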
